A study of Mus musculus with 2 samples.

Results

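The 9 genes Ager, Hopx, Aqp5, Pdpn, Rtkn2, Akap5, Spock2, Clic3 and Lmo7 are used to mark alveolar type 1 (AT1) cells, and they were followed here through every class of cells in 2 mouse lung scRNA-Seq libraries. They were taken by gene symbol, and all 9 were among the 32285 genes of the count tables. AT1 cells are the thin, flat epithelial cells that cover most of the gas-exchange surface, and the cuboidal surfactant-producing alveolar type 2 (AT2) cells are their progenitors in the adult lung. The AT1 surface lies against capillary endothelium, which holds aerocytes (the capillary cells specialised for gas exchange) and general capillary cells. A gene can therefore mark AT1 cells well within epithelium and still be made next to it in endothelium, lymphatic vessels or stroma.

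One library came from Cebpa fl/fl mice (called FF), which carry the floxed allele of Cebpa, a transcription factor of AT2 cells, and no Cre. The other came from Cebpa fl/fl mice with Sftpc-CreER (called KO or CebpaΔSftpc), a tamoxifen-inducible Cre. It is driven by the promoter of Sftpc, a surfactant protein gene of AT2 cells, and so not in endothelial and stromal cells. AT1 cells can come from AT2 cells, so the state of the Cebpa allele in KO AT1 cells is not known. Both libraries were taken 26 weeks after the first of 5 daily injections of tamoxifen at 75 mg/kg. Cells of 3 mice of mixed background were pooled per genotype. The methods give an age of 3 months for mice entering experiments, without naming these mice, and further weekly injections for analyses later than 3 months. Cells carry no mark of their mouse, so that each genotype was 1 library with no replicate, and every interval below covers counting error only. A difference between the libraries was therefore not tested against the spread between mice.

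Each library was read by 10x 3′ scRNA-Seq, in which reads that carry the same unique molecular identifier (UMI) count as 1 molecule. The libraries held 69200420 UMIs over 11721 barcodes (FF) and 64697396 UMIs over 13373 barcodes (KO), and 45 barcodes occurred in both. After removal of cells with under 200 genes or over 20% mitochondrial UMIs there were 11487 FF cells with a median of 4835 UMIs and 13238 KO cells with a median of 2607. The KO cells were thus shallower, and the gap was wide in AT2-like cells, with a median of 21132 UMIs in FF and 1477 in KO. These cells lay in a deeper and a shallower cluster, and in the deeper the medians were 21967 and 16620. In the AT1 cells chosen below, the medians were 2458 and 1862. In AT2-like cells Cebpa stood at 153 counts per 1000000 UMIs (CPM) in FF and at 107 in KO, log2 ratio −0.51 (95% interval −0.72 to −0.31). It was −0.37 (−0.61 to −0.14) in the deeper cluster and −0.49 (−0.99 to 0.0035) in the shallower. Cebpa RNA was thus still counted in the KO library. The paper reports diminished Cebpa in KO lungs by immunostaining, qPCR and Western blot at an earlier time, and reduced Cebpa staining in lineage-traced cells.

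Levels are CPM of the UMIs summed over all cells of a class. Since 3′ counting gives 1 UMI per captured molecule whatever the length of the RNA, these levels do not scale with gene length. AT1 cells were those in which Ager, Rtkn2 and Akap5 together made up at least 0.5% of the UMIs of a cell. The levels of these 3 genes in AT1-gated cells are set by that rule and are given as a description. The other 6 members chose no cell.

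All 9 genes are protein-coding on GRCm38 (mm10). At the surface, Ager (chr17:34597862-34600936, plus strand) encodes the receptor for advanced glycation end products, Aqp5 (chr15:99590782-99594829, plus strand) a water channel, and Pdpn (chr4:143267431-143299564, minus strand) the mucin-type glycoprotein podoplanin. Inside the cell, Hopx (chr5:77086988-77115121, minus strand) encodes a small homeodomain protein that acts in the nucleus without binding DNA itself, Akap5 (chr12:76324891-76334153, plus strand) an anchor for protein kinase A, Clic3 (chr2:25456838-25458776, plus strand) a member of the chloride intracellular channel family, and Lmo7 (chr14:101729957-101934710, plus strand) a LIM domain protein of cell junctions. Rtkn2 lies at chr10:67979570-68059740 on the plus strand. Outside the cell, Spock2 (chr10:60106219-60135198, plus strand) encodes a matrix proteoglycan. In GENCODE release M21, Hopx overlaps Hopxos, Rtkn2 overlaps Gm16212 and Clic3 overlaps Paxx on the opposite strand, and Spock2 contains the microRNA gene Mir6906 on its own strand.

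RefSeq promoter windows were found for 8 of the members. The 250 bases before the annotated start are shown for Ager and Akap5, which stood far higher in AT1-gated cells than in any other named class, and for Hopx and Lmo7, which were shared with aerocytes (RefSeq, GRCm38.p6, written 5′ to 3′ along the gene). Capitals mark GC boxes (GGGCGG or its reverse complement) and the NKX2-1-type site CTCAAG (or its reverse complement).
Ager, chr17:34597600-34597849, plus strand: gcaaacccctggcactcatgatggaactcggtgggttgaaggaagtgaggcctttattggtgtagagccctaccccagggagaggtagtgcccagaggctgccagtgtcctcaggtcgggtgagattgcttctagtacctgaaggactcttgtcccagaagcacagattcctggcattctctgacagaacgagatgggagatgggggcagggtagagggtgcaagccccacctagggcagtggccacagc
Akap5, chr12:76324641-76324890, plus strand: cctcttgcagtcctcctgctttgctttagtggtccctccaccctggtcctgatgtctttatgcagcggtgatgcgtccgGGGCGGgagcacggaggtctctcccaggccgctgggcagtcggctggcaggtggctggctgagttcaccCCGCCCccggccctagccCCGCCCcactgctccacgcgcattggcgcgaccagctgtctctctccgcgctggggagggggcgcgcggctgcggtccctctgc
Hopx, chr5:77115124-77115373, minus strand: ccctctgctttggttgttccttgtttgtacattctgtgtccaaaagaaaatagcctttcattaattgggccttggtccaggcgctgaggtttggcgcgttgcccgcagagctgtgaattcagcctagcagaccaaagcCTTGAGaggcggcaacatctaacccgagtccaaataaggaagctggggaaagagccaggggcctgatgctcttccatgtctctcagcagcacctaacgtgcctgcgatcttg
Lmo7, chr14:101729678-101729927, plus strand: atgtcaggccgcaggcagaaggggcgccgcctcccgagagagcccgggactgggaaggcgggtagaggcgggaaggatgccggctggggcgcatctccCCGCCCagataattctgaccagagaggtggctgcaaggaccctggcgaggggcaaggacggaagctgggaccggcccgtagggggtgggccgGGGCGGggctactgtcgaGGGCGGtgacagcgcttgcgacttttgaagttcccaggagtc
GC boxes were in the windows of Akap5, Aqp5, Clic3 and Lmo7 and in 32.7% of the 32851 windows of all genes, and CTCAAG was in those of Hopx and Spock2 and in 13.3% of all. The windows of the members held none of 6 other motifs searched on both strands, which were the TEAD core GGAATG (in 12.6% of all windows), the NKX2-1 form CAAGTG (11.6%), the C/EBP palindrome TTGCGCAA (0.164%), TATAAA (12.4%), the AP-1 site TGACTCA (4.46%) and the KLF site CCACACCC (3.20%). The GC share of the windows shown was 57.6% for Ager, 70.0% for Akap5, 52.4% for Hopx and 68.8% for Lmo7. Hopx and Lmo7 each have another start in RefSeq, and its window (chr5:77095268-77095517, 57.6% GC, and chr14:101840373-101840622, 46.0% GC), not shown, held none of the motifs.

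The AT1 gate took 94 of 11487 FF cells (0.818%, exact 95% interval 0.662 to 1.0%) and 31 of 13238 KO cells (0.234%, 0.159 to 0.332%), a log2 ratio of −1.81 (−2.44 to −1.21). The labels speak of sorted live cells and the paper of suspensions of whole lung, so the share refers to the cells that entered the libraries. Of the FF cells, 33 lay between 0.5 and 1% and 34 more lay just below the gate, at 0.25 to 0.5%. In KO 15 lay just above and 35 just below it, so more KO cells fell just short of the gate than passed it. In clusters made without the 9 members, 89 FF and 28 KO gated cells fell in the cluster with the most AT1 markers, which was left unnamed because its first gene was Scgb1a1, a club cell gene, followed by Ager and Igfbp2. Of the cells just below the gate, 18 of the 34 in FF but only 9 of the 35 in KO fell in that cluster. At a lower cluster resolution of 0.5 a cluster was named AT1-like, and it held 126 FF and 149 KO cells, log2 ratio 0.037 (−0.31 to 0.39): the lower share in KO was found with the gate and not with the cluster.

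The gated cells also held AT1 genes that did not choose them. Among the 10 genes that led them over the rest of their library by CPM + 20 were, in both libraries, Igfbp2, an insulin-like growth factor binding protein, Col4a3, a chain of basement membrane collagen, Krt7 and Ndnf. AT2 markers summed to 1.07% of their UMIs in FF and 0.525% in KO, against 24.9% in FF AT2-like cells, and endothelial markers to 0.0558% and 0.212%. Airway secretory markers summed to 0.0363% in FF but 3.38% in KO, mostly from 1 KO cell. This cell fell in an AT2-like cluster, had 34683 UMIs, 31.2% of all UMIs of the KO gated cells, and gave 9.84% of them to secretoglobins. Because it weighs so much in the KO sums, the KO level of each member summed over AT1 cells is given with and without it. That choice was made after seeing the data. The margins over other classes and the marker sums given for KO include this cell.

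Ager was the most abundant member, at 17982 CPM in FF gated cells (9116 UMIs) and 10489 in KO (1165 UMIs; 11389 without the secretoglobin-rich cell). Per cell it ran from 0 through a median of 9789 to 44877 CPM in FF, and from 1731 through 8102 to 36139 in KO, so the ranges overlapped almost fully. Hopx came next, at 6369.5 CPM in FF and 3367 in KO (4791 without that cell), and per cell from 0 through 7014 to 15717 in FF and from 0 through 2746 to 9285 in KO. Aqp5 stood at 2430.2 and 1197 (1519 without that cell), Akap5 at 1748 and 873 (1257), Clic3 at 1533 and 972 (1113), Spock2 at 1306 and 432 (628), Lmo7 at 1255 and 720.2 (877), Rtkn2 at 1233 and 441 (641) and Pdpn at 809 and 387 (537). In both libraries Ager and Hopx led and Pdpn stood lowest.

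Between these, Akap5, Clic3, Spock2, Lmo7 and Rtkn2 followed in that order in FF. The intervals of neighbours met there for Clic3 to Akap5 (1427 to 1644 and 1635 to 1867) and for Spock2, Lmo7 and Rtkn2 (1208 to 1409, 1159 to 1356 and 1138 to 1333). In KO Clic3 stood above Akap5, an order that turned without the secretoglobin-rich cell, and Lmo7 above Rtkn2 and Spock2, and the intervals of Rtkn2 (326 to 583), Spock2 (319 to 573) and Pdpn (280.2 to 521) overlapped. With 1 gate gene left out in turn and the cells chosen by the other 2, Rtkn2 stood at 1215 CPM in FF (88 cells) and 523 in KO (26 cells), and Akap5 at 1683 (78 cells) and 1147 (25 cells), both without the secretoglobin-rich cell. Without Ager the gate took 12 FF cells, with Ager at 16203 CPM, and no KO cell.

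**Figure D1:**
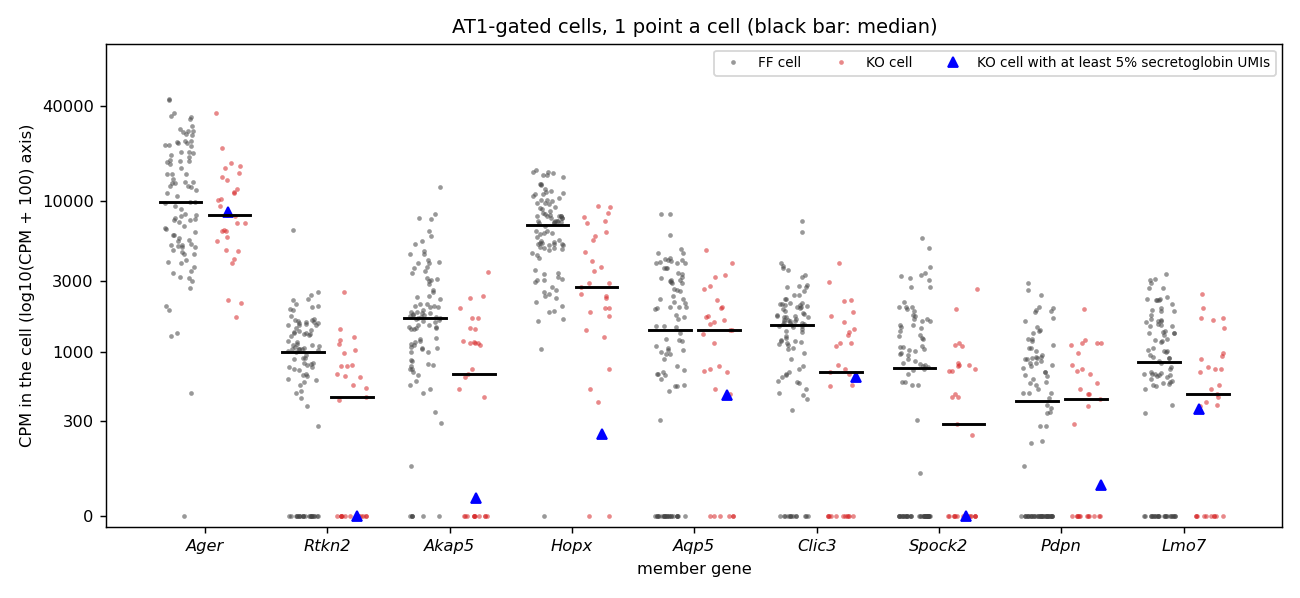
CPM of each member (x axis) in each AT1-gated cell (y axis, log10 of CPM + 100), 94 FF cells in grey and 31 KO cells in red, with the median of a library as a black bar and the secretoglobin-rich KO cell as a blue triangle. The FF and KO points overlap for every member. The Hopx medians are 7014 CPM in FF and 2746 in KO, and the Aqp5 medians 1422 and 1410.

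Most AT1-gated cells held most members. At least 1 of the 6 members outside the gate was counted in every gated cell, the median cell held 8 of the 9 in FF and 7 in KO, and 43 FF and 4 KO cells held all 9. With each cell thinned to 1000 UMIs (67 FF and 28 KO cells were deep enough), the medians were 7 and 5. At that depth Hopx was found in 100% of FF (exact 95% interval 94.6 to 100%) and 85.7% of KO cells (67.3 to 96.0%), and Aqp5 in 80.6% (69.1 to 89.2%) and 75% (55.1 to 89.3%). Pdpn was found in 53.7% (41.1 to 66.0%) and 35.7% (18.6 to 55.9%), and in 59.6% and 61.3% without thinning. The intervals of the libraries overlapped for each of these 3 genes.

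In both libraries 7 of the 9 members stood at least 4-fold higher in AT1-gated cells than in every other named class of at least 20 cells (19 classes in FF, 22 in KO), and Pdpn and Lmo7 did not. The place of Ager, Rtkn2 and Akap5 among the 7 is partly set by the gate. The members outside the gate that passed were Hopx, Aqp5, Spock2 and Clic3. Unnamed clusters did not enter. An unnamed KO cluster, described below, held Akap5 well above every named class. The cells of the AT1-marker cluster below the gate, also unnamed, stood above every named class for some members. In FF they held Clic3 at 411 CPM (166 in ciliated-like cells) and Rtkn2 at 67.1 (7.69 in platelet-like cells). In KO they held Aqp5 at 344 (287 in AT2-like cells). The margins therefore hold against named classes only. Of all genes with at least 50 UMIs in the gated cells, 3.66% met the 4-fold limit in FF and 5.41% in KO. The margin differed widely. It was 160-fold in FF and 49.3-fold in KO for Rtkn2, 31.2 and 24.0 for Akap5, and 24.4 and 17.6 for Ager, the 3 genes of the gate. It was 9.25 and 8.05 for Clic3, 6.46 and 4.13 for Spock2, 6.34 and 4.18 for Aqp5, and 5.57 and 4.30 for Hopx. Lmo7 reached 3.56 and 2.23 and Pdpn 2.61 and 1.6. These KO margins include the secretoglobin-rich cell. Without it the levels of all 9 in KO gated cells were higher, so the KO margins were wider, and the same 7 passed. Hopx then stood at 4791 CPM against 783 in aerocyte-like cells, Aqp5 at 1519 against 287 in AT2-like cells and Spock2 at 628 against 105 in myofibroblast-like cells. Only the 3 gate genes passed a 10-fold limit over the named classes, and their margins are partly set by the gate. Cells chosen by 7 AT1 genes that are no members gave the same 7 specific genes in both libraries. With the gate lowered to 0.25% the 7 held in FF, but in KO only Ager, Rtkn2, Akap5 and Clic3 did.

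**Figure D2:**
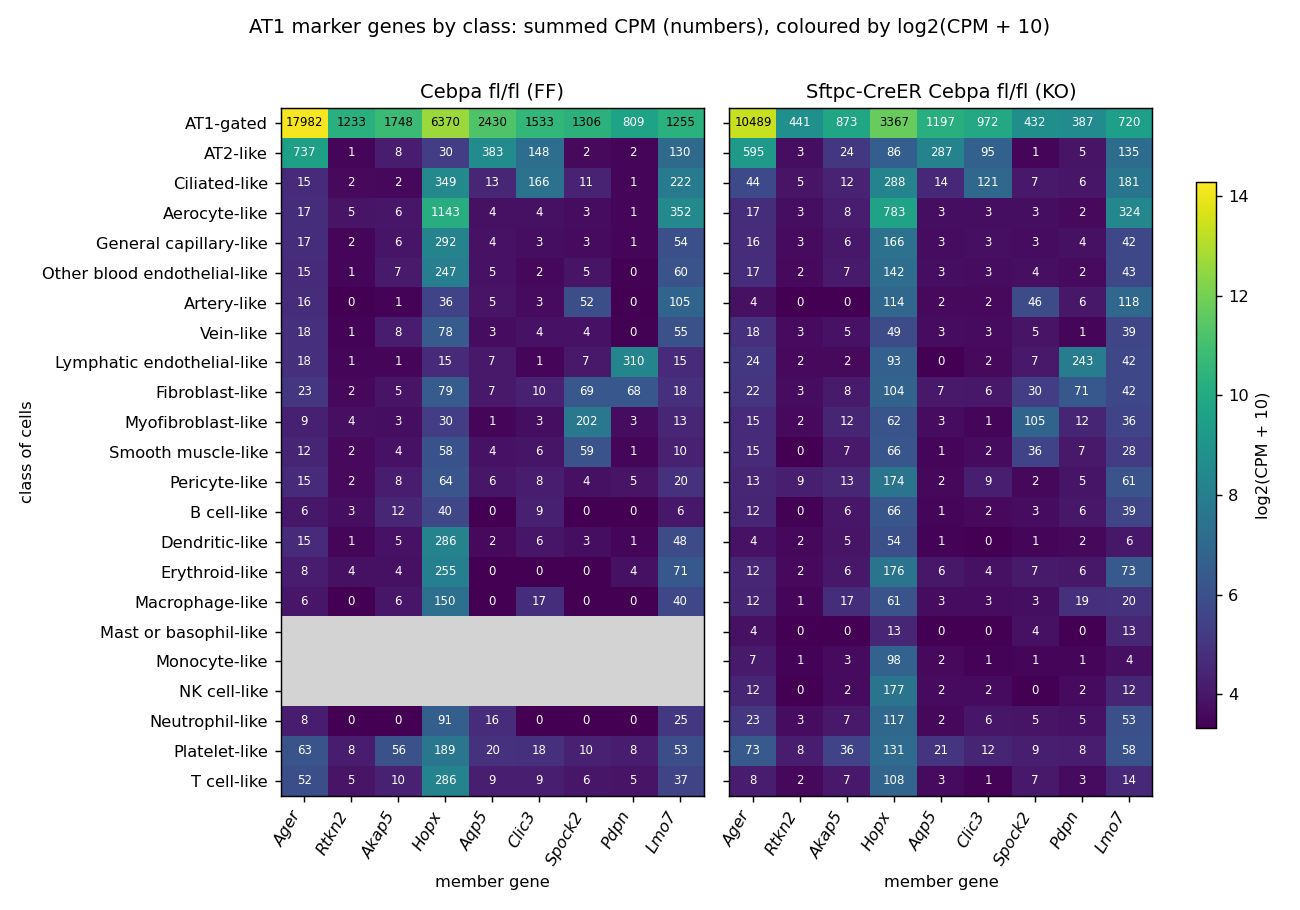
Summed CPM of the 9 members (columns) in AT1-gated cells and in each named class of at least 20 cells (rows), FF on the left and KO on the right, coloured by log2(CPM + 10), with grey where a class held too few cells. Outside the first row, Ager, Aqp5 and Clic3 stand out in AT2-like cells, Hopx and Lmo7 in aerocyte-like cells (1143 and 352 CPM in FF), Pdpn in lymphatic cells and Spock2 in myofibroblast-like cells.

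Which classes held a member above its own background was read against the median level of that member over the non-epithelial classes, a limit chosen after seeing the data. A pair of member and class counted if it had at least 10 UMIs and the lower bound of its level was over 3 times that median. Of 171 pairs in FF and 198 in KO, 18 passed in each (10.5% and 9.09%), against 4.82% and 4.76% of the pairs of all genes, and 15 pairs passed in both libraries. These were Ager in AT2-like and platelet-like cells, Aqp5 in AT2-like cells, Clic3 in AT2-like and ciliated-like cells, Pdpn in lymphatic endothelial-like and fibroblast-like cells, Hopx in aerocyte-like cells, Lmo7 in aerocyte-like and ciliated-like cells, Akap5 in platelet-like cells, and Spock2 in myofibroblast-like, fibroblast-like, smooth muscle-like and artery-like cells. Rtkn2 passed this limit in no class of either library. Hopx in ciliated-like and general capillary-like cells and Lmo7 in AT2-like cells passed in FF only, and Aqp5 in ciliated-like and platelet-like cells and Pdpn in macrophage-like cells in KO only. Passing in 1 library need not mean a difference in level. Lmo7 was at 130 CPM in FF and 135 in KO, and Aqp5 at 12.5 and 14.1 in ciliated-like and 19.8 and 21.3 in platelet-like cells. Hopx was lower in KO in both its classes (349 and 288, and 292 and 166). Few FF cells were macrophage-like, with 0 Pdpn UMIs against 142 in KO. The limit chosen first was set from free RNA of Sftpc, or of endothelial genes in epithelial classes. It passed 50 of the 171 pairs in FF and 85 of the 198 in KO. These are smaller shares than the 56.3% and 56% of the pairs of all genes, unlike with the limit chosen later. Sftpc in aerocyte-like cells was at 745 CPM in FF and 115 in KO, so in that class the limit was lower in KO. It was not lower in every class. For Hopx in fibroblast-like cells 88.7 UMIs were expected from free RNA in FF and 182 in KO.

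Ager had the highest CPM of the members in AT2-like cells. It stood at 737 CPM in FF AT2-like cells and 595 in KO, and at 6.21 and 12.1 in B cell-like cells. The FF cells were mostly in the deeper of the AT2-like clusters (379 cells outside the gate, median 21967 UMIs) and the KO cells mostly in the shallower (407 cells, median 1301). In the deeper cluster the libraries differed little, at 745 CPM in FF and 704 in KO (90 cells), log2 ratio −0.08 (−0.18 to 0.02), and in the shallower they stood at 663 and 374. With cells of the deeper cluster thinned to 1000 UMIs, an Ager UMI was found in 50.1% of FF (45.0 to 55.3%) and 44.4% of KO cells (34 to 55.3%). The top 5% of the deep FF cells held 12.5% of its Ager UMIs, so the RNA was spread over the cluster.

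AT2-like cells held 40.4% of all Ager UMIs of the FF library, against 53.0% in AT1-gated cells. In KO the shares were 29.3% and 27.9%. Such shares depend on the number of cells in a class as well as on its level. AT2-like cells were 4.04% of FF and 3.75% of KO cells, and AT1-gated cells 0.818% and 0.234%. In platelet-like cells Ager was at 62.6 and 72.9 CPM, from 57 and 48 UMIs, and in 6.21% and 7.80% of cells thinned to 1000 UMIs. Over platelet-like cells with at least 3000 UMIs (63 FF, 60 KO) it was at 21.0 CPM from 8 UMIs and 52.4 from 18, so in FF most of it lay in the shallow cells.

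Aqp5 followed the same pattern with a smaller margin. In AT2-like cells it was at 383 CPM in FF and 287 in KO, and in the deeper cluster at 388 and 361, log2 ratio −0.11 (−0.24 to 0.03). In the shallower cluster, which held most KO AT2-like cells, it was at 341 and 137, log2 ratio −1.32 (−1.67 to −0.98). More Aqp5 UMIs of the FF library lay in AT2-like cells (68.6%, 67.3 to 69.8%) than in AT1-gated cells (23.4%, 22.2 to 24.6%). In B cell-like cells 0 UMIs were counted in FF, an exact upper bound of 11.4 CPM, and 3 in KO. Platelet-like cells were at 19.8 and 21.3 CPM.

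Clic3 was shared by AT2-like and ciliated-like cells in about equal measure. In FF it was at 148 CPM (140.4 to 156) and 166 (153 to 180), and in KO at 94.8 and 121. In the deeper AT2-like cluster the levels were 148 and 126, log2 ratio −0.23 (−0.47 to −0.0038), and in the deeper ciliated-like cluster 170.1 and 190.5, log2 ratio 0.16 (−0.12 to 0.44). The shallower clusters held most KO cells of both classes, and Clic3 was lower in KO there. It was at 145 and 30.9 in the AT2-like one, log2 ratio −2.23 (−2.96 to −1.56). In the ciliated-like one it was at 131 and 63.8, log2 ratio −1.04 (−1.61 to −0.46). AT2-like cells held 44.7% of the Clic3 UMIs of FF, ciliated-like cells 19.1% and AT1-gated cells 24.9%. Cells with at least 5% secretoglobin UMIs, 21 in FF and 10 in KO outside the gate, had Clic3 at 197 and 36.0 CPM and Aqp5 at 183 and 167.

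Pdpn was the least AT1-specific member. It is a classical marker of lymphatic endothelium, and lymphatic endothelial-like cells (133 in FF, 113 in KO) held it at 310 CPM (270 to 353) and 243 (199 to 292), with a UMI in 31.7% and 17.3% of cells thinned to 1000 UMIs, against 0 of 46 FF and 0.761% of KO B cell-like cells. No other member passed its background there. Over lymphatic cells with at least 3000 UMIs the log2 ratio of KO over FF was −0.31 (−0.69 to 0.05), and 9.27% of all genes had an interval below 0 there. Fibroblast-like cells held Pdpn at 67.8 and 71.0 CPM, log2 ratio 0.07 (−0.15 to 0.28). Within these it was highest in the cluster led by Dcn, Mmp3 and Clec3b, at 98.2 CPM (319 cells) and 110.1 (116 cells), and lowest in the one led by Npnt, at 13.6 and 15.1. An unnamed cluster led by Adh7, Nbl1 and Lrat held it at 86.8 and 76.8. Stromal classes together held 31.4% of the Pdpn UMIs of FF, about as much as the 29.3% in AT1-gated cells, and lymphatic cells 15.9%. In blood endothelial classes Pdpn was at 6.32 CPM or less in either library.

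Hopx was the member with the most UMIs outside epithelium. Aerocyte-like cells held it at 1143 CPM (1123 to 1164) in FF and 783 (766 to 800.4) in KO, from 11913 and 8004 UMIs, and 66.6% and 48.6% of them had a UMI when thinned to 1000, against 2.17% and 6.60% of B cell-like cells. General capillary-like cells stood next in blood endothelium, at 292 and 166 CPM, then the other blood endothelial-like cluster at 247 and 142. Vein-like cells (78.2 and 48.8) stood above artery-like cells (36.5 and 114) in FF and below them in KO. Ciliated-like cells held it at 349 and 288. AT2-like cells of the deeper cluster stood at 21.3 (180 UMIs) and 36.3 (50 UMIs), below the medians of Hopx over the non-epithelial classes. Those of the shallower cluster, which held most KO AT2-like cells, stood at 106 (102 UMIs) and 185 (126 UMIs), above these medians. T cell-like cells were at 286 CPM in FF and 108 in KO, below the limit for a class above background. Aerocyte-like cells held 47.5% of the Hopx UMIs of FF and AT1-gated cells 12.9%, and in KO 53.4% and 2.50%.

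Hopx was also lower in KO in aerocyte-like, general capillary-like, other blood endothelial-like and vein-like cells, in which the Cre is not driven. In artery-like and lymphatic endothelial-like cells it was higher in KO, from few UMIs: artery-like cells were at 36.5 CPM (26.4 to 49.1, 43 UMIs) in FF and 114 (85.4 to 148, 54 UMIs) in KO, and lymphatic cells at 15.3 (7.66 to 27.5, 11 UMIs) and 92.6 (66.8 to 125, 42 UMIs). Over aerocyte-like cells with at least 3000 UMIs, which had similar depth in both libraries (medians 7027 and 8428.5), the log2 ratio was −0.50 (−0.54 to −0.46), and over general capillary-like cells it was −0.85 (−0.94 to −0.77). Intervals below 0 were found for 15.3% of all genes in these aerocyte-like cells and for 21.5% in the general capillary-like cells, where the medians over all genes were 0.02 and −0.03. Of all genes, 4.58% had a lower ratio than Hopx in aerocyte-like cells and 1.68% in general capillary-like cells. The cause was not tested.

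Lmo7 shared the aerocyte pattern at a lower level. It stood at 352 CPM in FF aerocyte-like cells and 324 in KO, and in those with at least 3000 UMIs the log2 ratio was −0.08 (−0.16 to −0.01), smaller than that of Hopx in the same cells. Ciliated-like cells held it at 222 and 181 CPM, AT2-like cells at 129.7 and 135, and artery-like cells at 105 and 118. Its median over the non-epithelial classes was 40.4 CPM in FF and 40.6 in KO, so Lmo7 had, with Hopx (90.6 and 106), the highest level outside its main classes. Only 7.66% of the Lmo7 UMIs of FF and 1.32% of those of KO lay in AT1-gated cells, the lowest shares among the members.

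Rtkn2 was the narrowest member by its margin over the named classes, which is partly set by the gate. Among the other named classes its highest level in FF was 7.69 CPM in platelet-like cells (7 UMIs) and in KO 8.95 in pericyte-like cells (5 UMIs), and in the deeper AT2-like cluster it was at 1.65 and 2.18. Of the 790 Rtkn2 UMIs of FF, 79.1% (76.1 to 81.9%) lay in AT1-gated cells. In KO 19.1% of 256 UMIs (14.5 to 24.5%) did and 16.4% lay in the rest of the same cluster. Other blood endothelial classes held 18.0% of these KO UMIs, aerocyte-like cells 13.7% and blood and immune classes 12.5%. These groups were 25.3%, 14.9% and 32.7% of KO cells.

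Akap5 had the next widest margin over the named classes, with platelet-like cells next, at 56.0 CPM (41.7 to 73.6) and 36.4 (23.3 to 54.2), and at 28.8 (11 UMIs) and 26.2 (9 UMIs) in those with at least 3000 UMIs. AT1-gated cells held 64.4% of its UMIs in FF and 11.3% in KO. Blood and immune classes, which were 13.2% of FF and 32.7% of KO cells, held 25.7% of the Akap5 UMIs of KO. In the deeper AT2-like cluster it stood at 8.74 CPM in FF and 26.8 in KO, log2 ratio 1.62 (1.01 to 2.21), from 74 and 37 UMIs, of which the top 5% of cells held 60.8% and 70.3%. Cldn5, an endothelial gene, was also higher in these KO cells, at 156 against 75.9 CPM, and its part in the result was not tested. A KO cluster of 122 cells outside the gate, led by Akap5, Gpx3 and Gsta3 and left unnamed because its markers were mixed, held Akap5 at 214 CPM, Ager at 545 and Hopx at 622. It held 2 FF cells. Its Akap5 level was above the 36.4 CPM of KO platelet-like cells, and as an unnamed cluster it did not enter the margin.

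Spock2 was the member of the stroma. Myofibroblast-like cells held it at 202 CPM (182 to 224) in FF and 105 (88.0 to 123) in KO, fibroblast-like cells at 68.6 and 29.8, smooth muscle-like cells at 59.0 and 36.0 and artery-like cells at 51.8 and 46.3. AT2-like cells were at 2.01 and 1.46 CPM. Stromal classes held 45.3% of the Spock2 UMIs of FF and AT1-gated cells 34.9%, and in KO 46.2% and 7.52%. The fibroblast-like clusters differed in level and in their number of cells. The one led by Dcn, Mmp3 and Clec3b was at 98.8 (319 cells) and 51.9 (116 cells), the one led by Gpc3, Inmt and C3 at 65.9 (541) and 22.9 (1144), and the one led by Npnt at 7.12 from 11 UMIs and 10.6 from 7. Over cells with at least 3000 UMIs, the log2 ratio of KO over FF was −0.67 (−0.98 to −0.37) in myofibroblast-like and −1.13 (−1.48 to −0.79) in fibroblast-like cells. Intervals below 0 were found for 10.1% and 11.5% of all genes there, and the median over all genes was 0.03 and 0.01. In artery-like cells of that depth the ratio was −0.07 (−0.85 to 0.67).

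**Figure D3:**
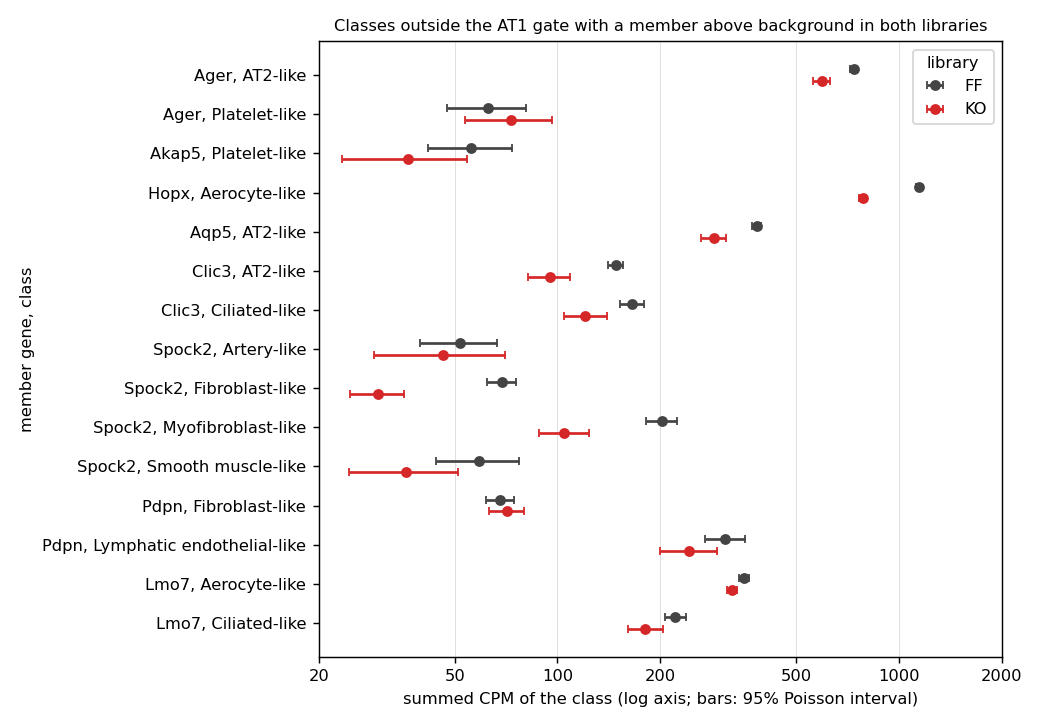
Summed CPM (log axis) of the 15 pairs of member and class outside the AT1 gate that were above background in both libraries. FF is in grey and KO in red, with 95% Poisson intervals. Hopx in aerocyte-like cells lies highest, at 1143 and 783 CPM, and Spock2 in fibroblast-like cells at 68.6 and 29.8.

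**Figure D4:**
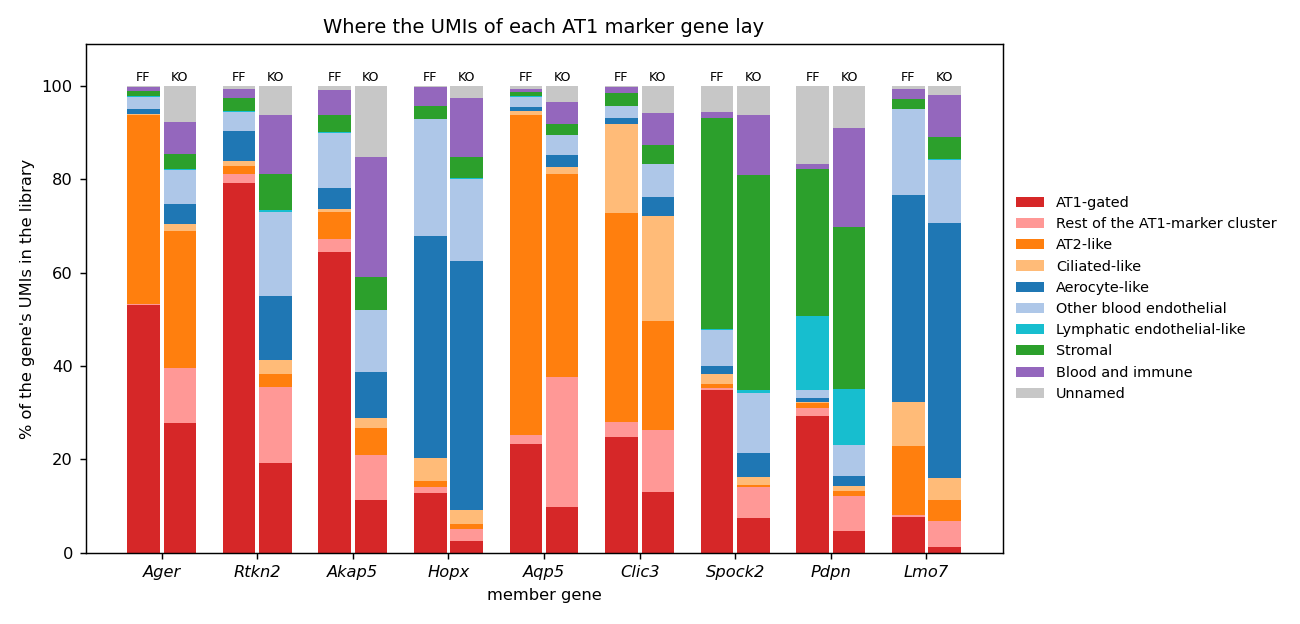
Share of the UMIs of each member in a library (y axis, percent) by the group of classes they lay in, with an FF and a KO bar for each member. Rtkn2 has 79.1% in AT1-gated cells in FF and 19.1% in KO, and Hopx and Lmo7 lie mostly in aerocyte-like and other blood endothelial cells in both. The shares also depend on cell numbers: AT1-gated cells were 0.818% of FF and 0.234% of KO cells, and blood and immune classes 13.2% and 32.7%.

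In AT1-gated cells, all 9 members were lower in KO, with log2 ratios from −1.60 for Spock2 (−2.05 to −1.17) to −0.66 for Clic3 (−0.96 to −0.36). The median was −1.0, the value of Akap5. Akap5, Ager and Rtkn2 chose these cells, so their ratios, and counts that include them, are given as a description. All 9 intervals lay below 0, as did those of 16.4% of all genes with at least 50 UMIs in these cells. In all, 5 members, Rtkn2, Spock2, Pdpn, Aqp5 and Akap5, were at least 2-fold lower with an interval that left out 0, as were 8.95% of all genes. By the median over single gated cells, Rtkn2 stood at 1003.5 CPM in FF and 470 in KO, Spock2 at 772 and 283 and Akap5 at 1711 and 701. The medians of Aqp5 (1422 and 1410) and Pdpn (434 and 450) hardly differed between the libraries, unlike their sums. Without the secretoglobin-rich cell all 9 intervals still lay below 0 (8.9% of all genes), but the median was −0.59, and Spock2 alone stayed past 2-fold, at −1.06 (−1.51 to −0.63), against 4.12% of all genes. The next were Rtkn2 at −0.94 (−1.39 to −0.52), Aqp5 at −0.68 (−0.97 to −0.40) and Ager at −0.66 (−0.76 to −0.56), and Hopx was nearest to 0 at −0.41 (−0.57 to −0.25). The median over all genes was −0.11 with that cell and −0.04 without it. With every cell weighted alike, the ratios ran from −1.37 for Akap5 to −0.30 for Pdpn.

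The 6 members outside the gate bear on the comparison without having chosen the cells. Their 6 intervals lay below 0 with and without the secretoglobin-rich cell, and 3 of them (Spock2, Pdpn and Aqp5) were at least 2-fold lower with it and 1 (Spock2) without it. All 9 members were below 0 under each of the 12 other settings of the gate, filters and scaling that can change these values, in a range of −3.52 to −0.16. The settings with every cell weighted alike and with free RNA subtracted gave no intervals. In 2 of the other settings some intervals included 0. With cells chosen by the 7 non-member genes they were those of Hopx (−0.35 to 0.02), Pdpn (−0.97 to 0.14), Akap5 (−0.77 to 0.03) and Clic3 (−0.61 to 0.18), and with the gate at 1% those of Pdpn (−1.01 to 0.06) and Clic3 (−0.66 to 0.10). All 6 endothelial markers stood higher in the KO gated cells, with sums of 558 CPM in FF and 2125 in KO, and Cldn5 was at 124 and 675. Of 11 AT2 markers 7 stood lower in KO, with sums of 10695 and 5249 CPM. Sftpc was at 7796 and 1179 (1702 without the secretoglobin-rich cell), and none of either list was at 0. The top 5% of the gated cells held 90.0% of the Sftpc UMIs in FF and 41.2% in KO, so the AT2 sum of FF rests on few cells. With cells thinned to 1000 UMIs, Sftpc was found in 61.2% of FF (48.5 to 72.9%) and 46.4% of KO cells (27.5 to 66.1%), and these intervals overlap. The part of these markers in the ratios was not tested.

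**Figure D5:**
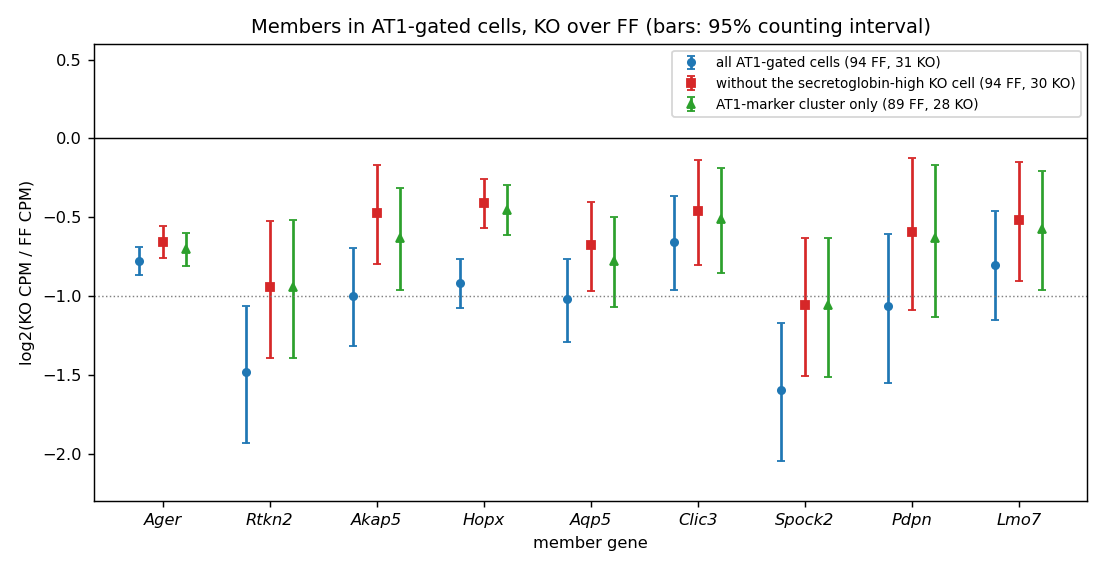
Log2 of KO over FF CPM of each member in AT1-gated cells with 95% counting intervals, for all gated cells, without the secretoglobin-rich KO cell and for the AT1-marker cluster only. Every point lies below 0, and the median moves from −1.0 to −0.59 when the 1 cell is left out.

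The KO library held a second set of cells with these genes. Of the cells of the AT1-marker cluster with under 5% secretoglobin UMIs, 29 FF and 124 KO cells lay below the gate. The FF cells were shallow (median 942 UMIs) and held Hopx at 3941 CPM, Aqp5 at 1079.5, Clic3 at 897 and Ager at 767. In these FF cells Akap5 was at 507, Lmo7 at 390, Pdpn at 286, Rtkn2 at 195 and Spock2 at 65.0. The KO cells were deeper (median 3763.5 UMIs) and held Ager at 708, Hopx at 536, Lmo7 at 445, Aqp5 at 433, Clic3 at 147, Akap5 at 121, Rtkn2 at 61.8, Spock2 at 60.4 and Pdpn at 41.2. Their leading genes, named after their values were seen, were the simple-epithelium keratins Krt18, Krt7 and Krt8 with Sprr1a and Areg, at 913, 554, 761, 386 and 452 CPM. The FF cells below the gate held Krt18, Krt7 and Krt8 at 780, 1040.5 and 455 CPM. AT1-gated cells held them at 420, 1527 and 527 in FF. In KO AT1-gated cells, without the secretoglobin-rich cell, they were at 432, 1492 and 511. In the 124 KO cells Sprr1a had a UMI in 11.3% and Areg in 26.6%. Markers of other lineages were also found in these 124 cells, with a UMI of Sftpc in 73.4%, of the endothelial gene Pecam1 in 74.2%, of the leukocyte gene Ptprc in 46.8% and of the collagen gene Col1a1 in 40.3%. These shares are without thinning. In AT1-gated cells Pecam1 was in 14.9% of FF and 70.0% of KO cells, Ptprc in 1.06% and 16.7% and Col1a1 in 3.19% and 6.67%, for KO without the secretoglobin-rich cell, at lower median depths of 2458 and 1841.5 UMIs. The part of other cells in the same droplet was not tested.

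Among 20 further AT1 genes, 8 were at least 4-fold higher in AT1-gated cells than in every other named class in FF and 7 in both libraries. Of all genes with at least 50 UMIs in the gated cells, 3.66% met this in FF and 5.41% in KO. These 7 were Cldn18, a tight junction protein, Gprc5a, Igfbp2, the basement membrane collagens Col4a3 and Col4a4, Krt7, and Scnn1g, a subunit of the epithelial sodium channel, and the other was Vegfa in FF (6.19-fold in FF, 2.79-fold in KO). Col4a3 at 1379 CPM in FF had a margin of 94.9 and Scnn1g at 665 CPM one of 202, both above that of Ager. In contrast, 6 of the 20 in FF and 7 in KO were higher in another class than in AT1 cells. Emp2 (5725 CPM in FF aerocyte-like and 5693 in AT1-gated cells), Cav2 and Cyp4b1 were highest in aerocyte-like cells, Cav1 in other blood endothelial-like cells, Sec14l3 in ciliated-like cells (3493 against 2282 CPM) and Timp3 in lymphatic endothelial-like cells. The further 1 in KO was Limch1, at 769.7 CPM in fibroblast-like and 756 in AT1-gated cells, and without the secretoglobin-rich cell it was higher in AT1-gated cells (1086.5 CPM), which leaves 6. In KO, 19 of the 20 had an interval below 0 and 11 were also at least 2-fold lower, against 16.4% and 8.95% of all genes. Without the secretoglobin-rich cell 14 did and 3 were 2-fold lower, against 8.9% and 4.12% of all genes. The median was then −0.55, and the 3 were Col4a4 at −1.63, Sema3e at −1.30 and Vegfa at −1.05. None of the 20 was higher with an interval that left out 0.

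The genes whose levels followed the members most closely were ranked over 43 points, 20 of FF and 23 of KO (AT1-gated cells and the named classes), by the Pearson r of log2(CPM + 10) with the mean of the 9 members, among 283 genes with at least 50 UMIs in AT1-gated cells of each library. The first 10 were Col4a3 (r = 0.956), Krt7 (0.930), Mal2 (0.918), Gprc5a (0.913), Slc39a8 (0.887), Igfbp2 (0.887), Cldn18 (0.885), Hs2st1 (0.883), Ndnf (0.861) and Scd2 (0.798). The points share libraries and free RNA, so r is a description. Among the members, Rtkn2 (0.938), Ager (0.925) and Akap5 (0.916) correlated most with the mean of the other 8, then Aqp5 (0.877) and Clic3 (0.869), and Lmo7 (0.725), Hopx (0.665), Spock2 (0.644) and Pdpn (0.625) least. Rtkn2, Ager and Akap5 chose the AT1-gated cells among these points, so their lead is partly set by the gate.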

How the data were processed

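Cells of 3 mice per genotype were pooled, and live cells after enzymatic digestion were run as 1 10x 3′ scRNA-Seq library per genotype. The values are UMI counts per gene and barcode, deposited by the authors as unnormalised matrices made with Cell Ranger on mm10 (version 6.1.1 in the submitters' processing notes, 5.0.0 in the header of the count files). The deposited barcodes numbered 11721 (FF) and 13373 (KO), the cell numbers that the study gives for its filtered data.

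Cells with under 200 genes (88 FF, 30 KO) or over 20% mitochondrial UMIs (216 and 122) were left out. In Seurat 5.3.0 (sctransform 0.4.2, R 4.3.3) the libraries were integrated by anchors on 2991 variable genes without the 9 members and clustered on 30 principal components at resolution 1.0. Of 38 clusters, 33 were named "X-like" from marker lists by a rule settled after the clusters were seen, and 5 were not (4.82% of FF and 3.44% of KO cells). Doublets were kept, since the automatic threshold of Scrublet (scanpy 1.11.5) called 0 cells. Counts were summed per class and divided by the class total (CPM). Exact 95% intervals (Poisson for levels, Clopper-Pearson for shares, conditional binomial for ratios) cover counting error only. Classes of at least 20 cells were compared, with sums floored at 3 counts, and detection of the members was compared after thinning to 1000 UMIs, except where a share is given as unthinned. A ratio was taken for genes with at least 50 UMIs in both libraries together. With 1 library per genotype there was no test between genotypes and no p-value. The ratio calculation was checked on simulated counts.

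The genes named are the members, Cebpa, 20 further AT1 genes and the 10 genes most like the members. Cldn5, Sftpc and the keratins were named after their values were seen. The members and lists were chosen with earlier results of these data known. The alternatives were other gates, filters, cluster settings, scalings and limits.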

Additional observations from a re-analysis of the deposited data

How the results depend on the processing

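The lower AT1-gated share in KO (log2 −1.81) kept its direction under 8 of the 9 alternatives that change which cells are counted. It was −1.16 with the gate at 0.25% and −2.85 with cells chosen by 7 AT1 genes that are no members (94 FF and 15 KO cells). The cut for these genes, 1.48% of UMIs, was set in FF to take as many FF cells as the gate. The number of FF cells is therefore no result. With the AT1-like cluster at resolution 0.5 the ratio reversed to 0.037. No cluster took that name at resolution 1.0. The count of AT1-specific members in KO was 4 at a gate of 0.25% and 1 (Rtkn2) with that cluster, and 3 (the gate genes) in each library at a 10-fold limit. The median log2 ratio of the members in AT1 cells was −1.55 at a gate of 0.25% and −0.45 at 1%. The latter is the value of Pdpn, whose own interval was −1.01 to 0.06. The median was −0.54 with the non-member genes and −2.94 with the cluster. It was −0.59 without the secretoglobin-rich KO cell and −0.63 in the AT1-marker cluster only, and these last 2 alternatives were chosen after seeing the data. Pairs of member and class above background numbered 18 in FF and 18 in KO with the median limit, also chosen after seeing the data. Of 108 member ratios under the 12 alternatives that can change them, 108 were below 0, 6 had an interval that included 0, and 49 fell outside the interval of the value first computed. These ratios include those of the gate genes, and all come from the same libraries, so their number is no measure of support. No interval was computed with every cell weighted alike or with free RNA subtracted. The cause of these shifts was not tested. No paired analysis was possible because each genotype was 1 library with no replicate number, and for the same reason no replicate could be left out. The KO levels in the AT1 gate rest on 31 cells and 111073 UMIs.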
